A study of Homo sapiens with 18 samples.

Results

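The comparison was between OTX015 and vehicle in the leukaemia line AML3. It used 6 of the 18 libraries of the study, 3 labelled AML3 with the treatment OTX015 and 3 labelled AML3 with vehicle, and the libraries were chosen by these labels alone. The count tables name the line OCI-AML3 and the vehicle DMSO, and they call the same libraries R1, R2 and R3 of each group. OCI-AML3 is an established human acute myeloid leukaemia line, and as background it carries a mutated NPM1 gene, a genotype that the labels of the samples do not state. The other libraries of the study are AML3 with JQ1 and the line AML2 with vehicle, JQ1 or OTX015. The labels give neither the dose of OTX015 nor the time of treatment. They do not say whether the 3 libraries of a group came from separate cultures. The p-values therefore measure the spread between libraries within groups, estimated over all 18 libraries of the study, and it may be technical. The assay was CAGE, cap analysis of gene expression, in which a sequenced tag stands for the capped 5′ end of 1 RNA. Tags were counted at genes, at promoters and at enhancers.

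OTX015 (birabresib) is a small molecule that occupies the bromodomains of the BET proteins, which otherwise bind acetylated lysines on histones. BET proteins hold regulators of RNA polymerase II at enhancers and promoters, and among these is the positive elongation factor P-TEFb. P-TEFb releases paused polymerase into the gene, and the protein HEXIM1 with the 7SK RNA keeps a reserve of P-TEFb inactive. In leukaemia cells BET inhibitors are known for lowering the transcription of MYC and for raising HEXIM1.

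The vehicle libraries held 1864643, 1266765 and 822070 gene tags and the OTX015 libraries 800633, 777939 and 303883. Between 11780 and 12562 genes had a tag in each. Differences were tested with edgeR's quasi-likelihood test on the counts, fitted to all 18 libraries, with Benjamini-Hochberg adjustment over all features. A feature is said to rise or fall where the adjusted p was under 0.05. Levels are CPM, the tags of a feature scaled by the library size and a TMM normalization factor to a fixed total, and are given for libraries 1, 2 and 3 in that order. The factors were 0.92116, 0.91895 and 0.86347 with vehicle and 1.1548, 1.1856 and 1.5538 with OTX015, so that both depth and normalization differed between the groups. OTX015 library 3, the shallowest, stood apart, with correlations of log levels across genes of 0.876 and 0.878 with OTX015 libraries 1 and 2, against 0.962 between those. Markers of other cell types were at or near 0. Of 5 T cell, 5 erythroid and 5 epithelial markers none was listed, the 2 listed B cell markers had 0 CPM, and 1 fibroblast gene, COL1A2, reached 5.46 CPM in 1 OTX015 library. The summed level of 9 listed myeloid markers ran from 5076 to 5943 CPM with vehicle and from 482 to 632 CPM with OTX015. CTSG weighs heavily in this sum, with means of 3154 CPM with vehicle and 14.6 CPM with OTX015. All 8 tested markers fell, by 0.88 (CEBPA) to 7.63 (CTSG) on the log2 scale. In bulk libraries fewer cells with a transcript and less of it in each cell cannot be told apart, and CPM show each gene relative to the rest of its library.

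With OTX015 2886 of 10031 tested genes (28.8%) rose and 2619 (26.1%) fell, 5505 (54.9%) in all. Counts in the gene lists below stand against these shares. A change of at least 2-fold was found for 2269 genes that rose (22.6%) and for 1912 that fell (19.1%), and for 6228 genes (62.1%) the 3 and 3 libraries did not overlap. The median log2 difference over all genes was 0.03 and the median size of a difference was 0.88. With library size in place of TMM factors the median of all genes moved to 0.51 and 1512 genes fell, so that rises made up 72.7% of the calls in place of 52.4%. Directions below are relative to the TMM scale, and a gene family whose median changed sign with library size alone is given by its counts only. Without the libraries numbered 3 in all groups 5636 genes changed, 50.2% of them upward. Over 58 gene lists their removal moved a count by over 1.5 times and by more than 1 gene for the rises of 1 list (translation initiation, from 2 to 4) and for the falls of 4. These were antisense RNAs (from 5 to 9), the integrated stress response (from 7 to 11), snoRNA host genes (from 3 to 5) and MHC class I presentation (from 3 to 5).

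**Figure D1:**
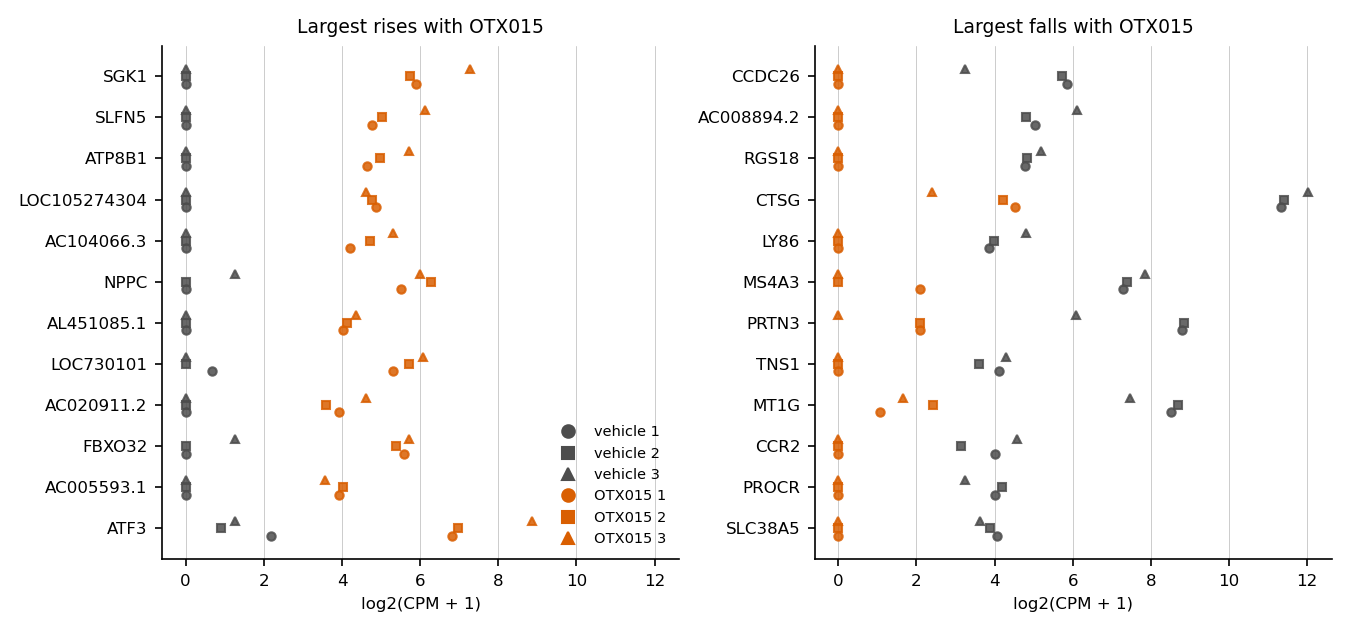
Level as log2(CPM + 1) in each library for the 12 genes with the largest rises (left panel) and the 12 with the largest falls (right panel); grey symbols are vehicle libraries, orange symbols OTX015 libraries, and the shape gives the library number. A lack of overlap between vehicle and OTX015 libraries was a condition for choosing these genes, and many points lie at 0.

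The largest rises were of genes nearly silent with vehicle. SGK1, a serum- and glucocorticoid-induced kinase (GRCh38 chromosome 6, 134169246 to 134318112), had 0 tags in each vehicle library and 59.0, 52.6 and 153 CPM in the OTX015 libraries. It was at least 89.7-fold higher against a floor of 3 tags over the vehicle group. SLFN5, of the interferon-inducible Schlafen family, and ATP8B1, a phospholipid flippase, also had 0 vehicle tags and were at least 44.1-fold and 38.4-fold higher. NPPC, which encodes C-type natriuretic peptide, had 1 vehicle tag and 140 OTX015 tags, a ratio of 218 (95% counting interval 38.5 to 8661). FBXO32, the ubiquitin ligase subunit atrogin-1, had 1 and 104 tags, a ratio of 162 (28.4 to 6450.0). Intervals and floors of this kind cover counting error only. SERPINI1, the protease inhibitor neuroserpin, had 3 and 60 tags, a ratio of 31.1 (10.2 to 155). Non-coding RNAs were frequent here, and AC104066.3, AL451085.1 and AC020911.2 were at least 29.6-fold, 19.7-fold and 17.6-fold higher. Among all genes listed 155 had 0 vehicle tags and a tag in every OTX015 library, 8 of them with 30 tags or more. The reverse was found for 169 genes, 20 of them with 30 tags or more. These counts rest on tags not scaled for depth, and every OTX015 library was shallower than every vehicle library. Pooled over a group, 30 vehicle tags (CSF1R) stood for 8.41 CPM and 32 OTX015 tags (AC005593.1) for 14.0 CPM. The counts for the directions are therefore not comparable, and the part of depth in their difference was not tested.

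HEXIM1 (GRCh38 chromosome 17, 45148502 to 45152101) stood at 18.8, 8.65 and 19.9 CPM with vehicle and 283, 269 and 678 CPM with OTX015. Every OTX015 library was above every vehicle library (62.1% of all tested genes had no overlap), and the log2 change was 4.69 (SE 0.52, adjusted p = 8.36e-08). Of 26 tested genes of elongation control 12 rose and 3 fell, against 28.8% and 26.1% of all genes, with a median log2 of 0.32. MEPCE, the enzyme that caps 7SK, rose by 1.52 on the log2 scale, AFF4, the scaffold of the super elongation complex, by 1.60, and MLLT3, a partner of AFF4, by 3.03. BRD2, a BET protein and thus a target of the compound, stood at 27.0, 29.4 and 25.5 CPM with vehicle and 48.1, 53.7 and 77.5 CPM with OTX015, a rise of 1.07. BRD3, another BET protein, went from 49.4 ± 4.15 to 41.8 ± 14.3 CPM (mean ± SD, n = 3) and did not pass the test (log2 −0.16, adjusted p = 0.566).

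On the TMM scale the largest subunit of RNA polymerase II rose while most of the others fell. POLR2A rose from 143, 187 and 112 to 437, 392 and 827 CPM (log2 1.89, SE 0.38, adjusted p = 0.000165). Of the 12 subunit genes tested 7 fell, 4 did not pass and POLR2A alone rose. POLR2I fell from 133, 147 and 182 to 56.8, 42.7 and 28.0 CPM and POLR2K by 1.13 on the log2 scale. With library size alone 2 subunits fell and 3 rose. Among 67 genes of Mediator and the general factors 18 rose and 7 fell, a share of rises no larger than the 28.8% of all genes. The risers included GTF2B, the initiation factor TFIIB (log2 2.24), CDK19, a kinase of Mediator (1.94), and GTF2A1, a subunit of TFIIA (1.70).

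**Figure D2:**
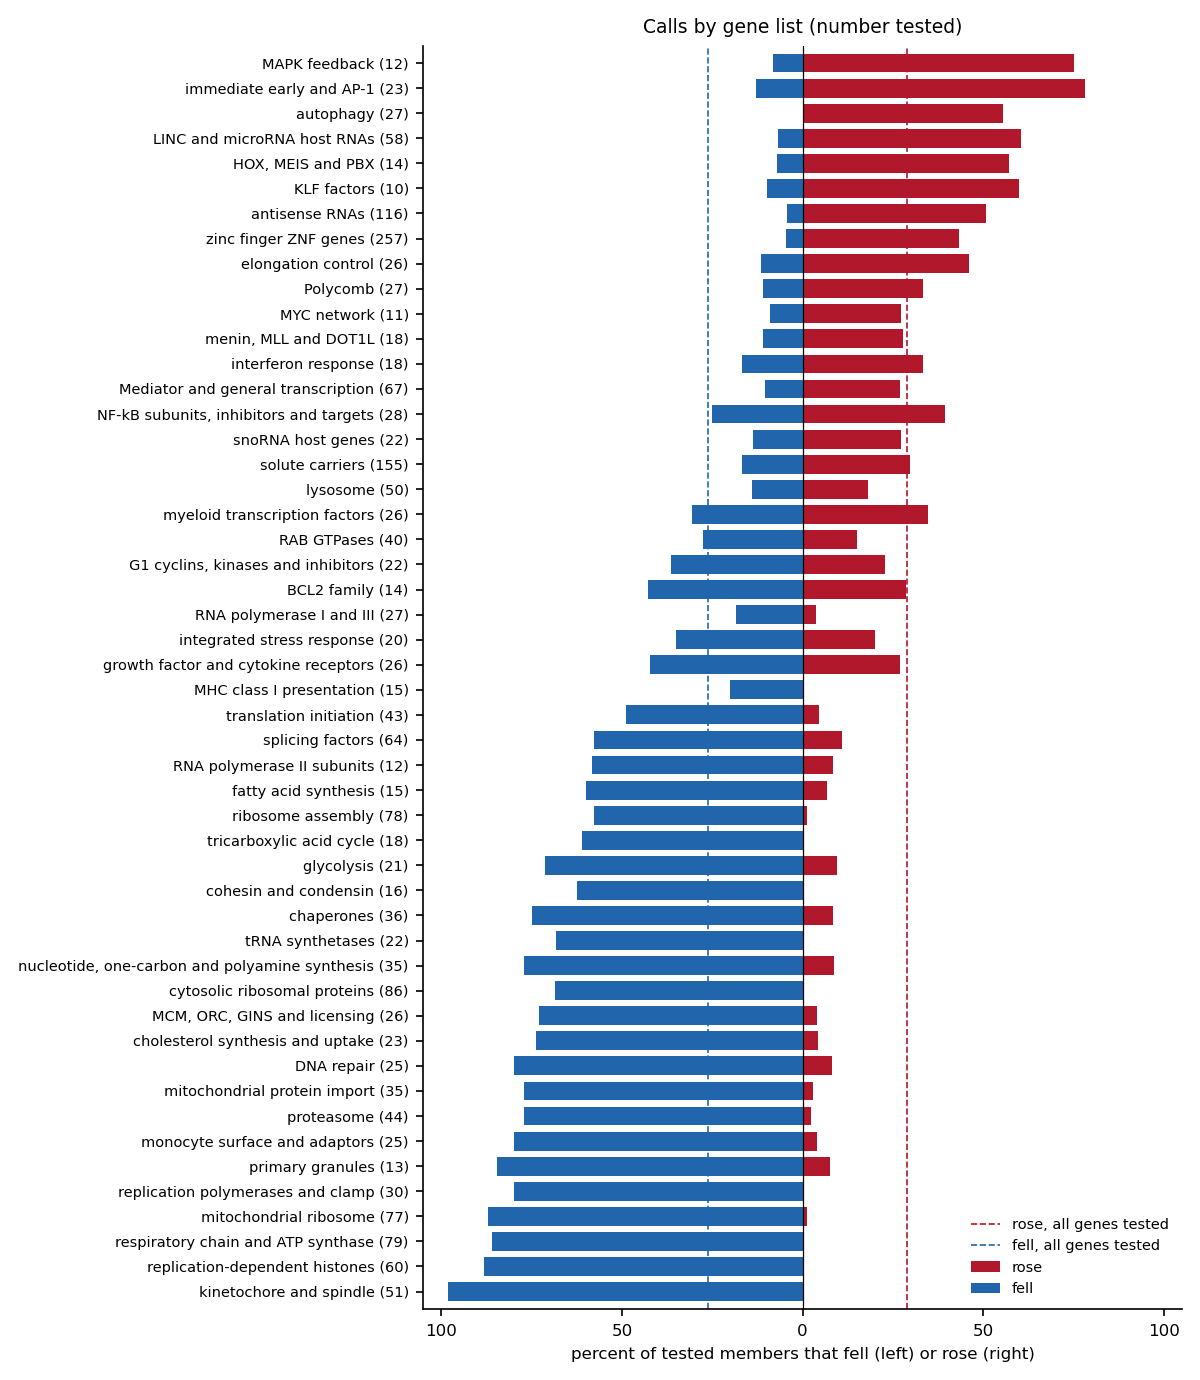
Percent of tested members of each gene list that fell (blue bars, left) or rose (red bars, right) with OTX015, for the lists described with at least 10 tested genes, ordered by the difference of the 2 shares, with the number tested in parentheses and dashed lines at the shares of all genes tested, 26.1% and 28.8%. Kinetochore, histone and mitochondrial ribosome genes extend furthest to the left, and MAPK feedback and immediate early genes furthest to the right.

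Immediate early genes encode short-lived regulators that cells induce within minutes of a stimulus, and many belong to the AP-1 family. Of 23 tested 18 rose and 3 fell, against 28.8% and 26.1% of all genes, with a median log2 of 1.88. ATF3, a stress-induced factor of that family, stood at 3.52, 0.865 and 1.42 CPM with vehicle and 111, 125 and 465 CPM with OTX015 (log2 6.59, SE 1.11, adjusted p = 2.65e-05). FOSB, a Fos subunit of AP-1, went from 1.76, 2.60 and 1.42 to 68.8, 82.1 and 114 CPM (log2 5.37). IER3 rose by 4.29, IER5 by 2.98 and ZFP36L1, which destabilises AU-rich messages, by 2.54. For FOSB and IER3 all OTX015 libraries exceeded all vehicle libraries, where 62.1% of all tested genes had no overlap. For ATF3 the third OTX015 library was the highest. The members that fell were BATF (log2 −2.36), BATF3 (−2.70) and ZFP36L2 (−0.95).

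Genes that damp MAP kinase signalling also mostly rose, 9 of 12 against 28.8% of all genes, with a median log2 of 2.29. DUSP1, a phosphatase of MAP kinases, had 2 tags with vehicle and 80 with OTX015, a ratio of 62.2 (16.7 to 523). DUSP10, which acts on the stress kinases p38 and JNK, rose from 1.24 ± 0.591 to 21.4 ± 3.66 CPM. DUSP6, an ERK phosphatase, rose by 2.45 on the log2 scale and SPRY4, a Sprouty inhibitor, by 3.33. DUSP3 was the member that fell (−3.09). Of 10 Krüppel-like factors 6 rose, among them KLF4, a factor of monocyte differentiation (3.05), KLF2 (1.63) and KLF10 (1.91), while KLF16 fell (−1.74).

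The stretch before the RefSeq start of HEXIM1 and of FOSB, both strongly raised, is shown because each holds TATA box letters close to its start. The sequences are from RefSeq (GRCh38.p14), 5′ to 3′ on the gene's strand, with the letters TATAAA in capitals. HEXIM1 is at chr17:45148275-45148474 (plus strand), from 200 to 1 bases before the start, and FOSB at chr19:45467796-45467994 (plus strand), from 200 to 2 bases before it.
HEXIM1: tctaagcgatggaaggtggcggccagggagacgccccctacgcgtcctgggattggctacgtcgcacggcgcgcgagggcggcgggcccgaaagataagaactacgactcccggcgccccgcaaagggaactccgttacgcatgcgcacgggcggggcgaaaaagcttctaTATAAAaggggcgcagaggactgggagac
FOSB: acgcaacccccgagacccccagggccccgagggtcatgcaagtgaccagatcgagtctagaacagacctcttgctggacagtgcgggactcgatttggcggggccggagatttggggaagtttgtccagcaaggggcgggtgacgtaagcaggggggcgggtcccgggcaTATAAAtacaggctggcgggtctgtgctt
TATAAA began 29 bases before the start in HEXIM1 and 30 bases before it in FOSB. Searched on both strands, it occurred in 8.59% and 8.57% of all 35116 RefSeq promoter windows of the same stretch. A match describes letters and does not show a site in use.

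PLK2, a polo-like kinase, went from 4.10, 6.06 and 1.42 to 83.0, 99.7 and 134 CPM (log2 4.58, SE 0.69, adjusted p = 5.73e-06). TNFRSF10B, the TRAIL receptor DR5, rose by 2.01. CDKN1A, the cell cycle inhibitor p21, stood at 92.1, 104.7 and 86.5 CPM with vehicle and 177, 176 and 284 CPM with OTX015. It did not pass (log2 1.15, adjusted p = 0.0655) but did without the libraries numbered 3 (0.84, adjusted p = 0.000148). It also passed in edgeR fitted to the 6 AML3 libraries compared (1.16, adjusted p = 0.000682) and with a replicate block (1.03, adjusted p = 0.00446). DESeq2 did not call it (1.17, adjusted p = 0.145), nor did edgeR when any single library of the comparison was left out.

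In the BCL2 family, which sets the threshold of mitochondrial apoptosis, 4 of 14 genes rose, a share near the 28.8% of all genes, and 6 fell. With library size alone 5 rose and 2 fell. The 4 risers were all BH3-only genes, whose proteins promote cell death. BMF went from 4.69, 4.33 and 2.84 to 56.8, 73.4 and 79.7 CPM (log2 4.0), PMAIP1, which encodes NOXA, rose by 3.42, BCL2L11, which encodes BIM, by 2.46, and BBC3, which encodes PUMA, by 1.06. BCL2, the survival gene targeted by venetoclax, fell from 65.1, 71.8 and 62.4 to 17.5, 8.76 and 17.2 CPM (log2 −2.23, adjusted p = 1.78e-06). BID, a BH3-only gene, also fell (−1.80), as did the pore formers BAX (−0.95) and BAK1 (−0.70). MCL1, another survival gene, went from 63.2 ± 27.2 to 102 ± 38.3 CPM and did not pass (adjusted p = 0.144). It passed when the replicate number was added to the model as a block.

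Of 27 autophagy genes 15 rose and none fell, with a median log2 of 0.81. GABARAPL1, which coats autophagosomes, rose by 2.62, ATG14, of the initiating lipid kinase complex, by 2.44, and the cargo receptors NBR1 and SQSTM1 by 1.93 and 1.90. Of 50 lysosome genes 9 rose and 7 fell, smaller shares than the 28.8% and 26.1% of all genes, and with library size alone 20 rose and 3 fell. The lysosomal hydrolases NEU1 and SGSH rose (2.34 and 2.62) while the protease CTSS, expressed in antigen-presenting cells, fell (−3.07).

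HOX genes of the A and B clusters mark immature and NPM1-mutated leukaemia cells. Of 14 tested HOX, MEIS and PBX genes 8 rose, against 28.8% of all genes, with a median log2 of 1.39. HOXA9, a leukaemia-maintaining member, went from 69.2, 95.2 and 65.2 to 446, 391 and 271 CPM (log2 2.27, SE 0.27, adjusted p = 2.64e-07). HOXA3 rose further, from 4.69, 3.46 and 11.3 to 162, 133 and 177 CPM (log2 4.73). HOXB3 rose by 3.71 and MEIS1, the cofactor of HOXA9, by 1.39. In HOXA9, HOXA3 and HOXB3 no vehicle library reached the lowest OTX015 library, and 62.1% of all tested genes likewise showed no overlap. HOXA11 was the member that fell (−1.23).

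Myeloid transcription factors moved both ways, with 9 of 26 higher and 8 lower. These shares are near the 28.8% and 26.1% of all genes, and with library size alone 10 rose and 3 fell. SPI1, which encodes the myeloid master regulator PU.1, fell from 339, 347 and 234 to 71.0, 63.5 and 36.6 CPM (log2 −2.39, SE 0.30, adjusted p = 4.71e-07). IKZF1, which encodes Ikaros, fell by 2.11 on the log2 scale. CEBPA, a granulocytic factor, went from 625, 566 and 647 to 380.1, 309 and 308 CPM (log2 −0.88, adjusted p = 0.00709). BCL6, a transcriptional repressor, rose from 1.17, 0 and 2.84 to 55.7, 29.6 and 21.5 CPM, and TCF7L2, a factor of the Wnt pathway, by 4.41. RUNX1 rose (1.64) and MYB, a factor of progenitor growth, fell (−1.07).

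Primary granules of granulocyte precursors hold serine proteases, and their genes fell deeply. Of 13 tested 11 fell, against 26.1% of all genes, with a median log2 of −3.65, and only CFD, which encodes complement factor D, rose. CTSG, the protease cathepsin G (GRCh38 chromosome 14, 24573522 to 24576260), stood at 2554, 2718 and 4190.5 CPM with vehicle and 21.8, 17.5 and 4.31 CPM with OTX015. The log2 change was −7.63 (SE 0.54, adjusted p = 1.32e-10). PRTN3, proteinase 3, stood at 441, 461 and 66.7 CPM with vehicle and 3.28, 3.29 and 0 CPM with OTX015. Vehicle library 3 was the lowest of the vehicle group for PRTN3 and the highest for CTSG. MS4A3, a membrane protein of granulocyte-monocyte progenitors, had 620 tags with vehicle and 3 with OTX015, 133-fold lower (45.3 to 646). RNASE6, an antimicrobial ribonuclease, fell by 5.15 on the log2 scale.

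Genes of the monocyte surface fell in 20 of 25 cases, with a median log2 of −1.83. TYROBP, the adaptor DAP12, went from 154, 155 and 245 to 16.4, 18.6 and 10.8 CPM (log2 −3.52). MNDA, a nuclear antigen of myeloid cells, fell by 5.0, FCGR2A, an Fc receptor, by 4.14, and AIF1, an actin-binding protein of macrophages, by 3.85. CD33, the target of gemtuzumab, fell from 65.1, 76.1 and 61.0 to 29.5, 32.9 and 23.7 CPM (log2 −1.2, adjusted p = 4.82e-05). CSF1R, the M-CSF receptor, had 30 vehicle tags and 0 OTX015 tags, at least 6.43-fold lower. ITGAM and CD14 had 4 vehicle tags each, too few for a comparison. Among receptors for growth factors and chemokines 7 of 26 rose and 11 fell, against 28.8% and 26.1% of all genes. By library size alone 9 rose and 5 fell. CCR2, which guides monocytes, had 51 vehicle tags and 0 OTX015 tags, at least 10.9-fold lower. FLT3, a receptor often mutated in this leukaemia, had a log2 of −0.72 (adjusted p = 0.0372). IL6ST, the shared subunit gp130, rose by 3.10.

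The stretches before the RefSeq starts of the 2 granule protease genes are shown because SPI1 fell beside them. They are from RefSeq (GRCh38.p14), 5′ to 3′ on the gene's strand, with the PU box letters GAGGAA in capitals on either strand. CTSG is at chr14:24576261-24576450 (minus strand), from 200 to 11 bases before the start, and PRTN3 at chr19:840799-840959 (plus strand), from 200 to 40 bases before it.
CTSG: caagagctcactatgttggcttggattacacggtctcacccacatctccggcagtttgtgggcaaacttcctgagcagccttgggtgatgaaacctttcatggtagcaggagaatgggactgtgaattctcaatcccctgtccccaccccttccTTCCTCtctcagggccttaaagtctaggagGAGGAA
PRTN3: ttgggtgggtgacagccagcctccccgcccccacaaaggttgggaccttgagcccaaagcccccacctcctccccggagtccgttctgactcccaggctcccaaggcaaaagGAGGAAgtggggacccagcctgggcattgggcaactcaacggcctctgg
The letters occurred 2 times in CTSG, first at 46 and 16 bases before the start, and 1 time in PRTN3, at 88 bases. They were present in 18.17% and 15.53% of all RefSeq promoter windows of the same stretch, and whether PU.1 binds there was not measured.

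All 6 tested metallothioneins, small proteins that bind zinc and copper, fell, against 26.1% of all genes, with a median log2 of −5.22. Their genes lie together on chromosome 16 and are near-identical, so tags can be split between copies and single values are uncertain. MT1G stood at 363, 414 and 176 CPM with vehicle and 1.09, 4.38 and 2.15 CPM with OTX015. MT1E went from 448, 579 and 251 to 6.55, 9.86 and 19.4 CPM (log2 −5.30), MT1F fell by 5.86 and MT1X by 2.77. The groups did not overlap for MT1E, MT1F and MT1X, as for 62.1% of all tested genes. The stretch before the start of MT1X, the member of these 4 with a sequence at hand, is shown because the family responds to metals through repeated short elements there. It is from RefSeq (GRCh38.p14), chr16:56682270-56682423 (plus strand), from 200 to 47 bases before the start, with the core of the metal response element (TGCACNC or TGCGCNC, either strand) in capitals.
MT1X: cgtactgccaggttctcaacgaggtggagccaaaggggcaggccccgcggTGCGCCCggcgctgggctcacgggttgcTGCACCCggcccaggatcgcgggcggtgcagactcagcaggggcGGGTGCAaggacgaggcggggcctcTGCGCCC
It holds 4 matches, and at least 1 match was present in 16.37% of all RefSeq promoter windows of that stretch.

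MYC, the growth-promoting transcription factor, stood at 182, 209 and 183 CPM with vehicle and 68.8, 99.7 and 60.3 CPM with OTX015. All OTX015 libraries were below all vehicle libraries (62.1% of all tested genes had no overlap), and the fall was 1.31 on the log2 scale (SE 0.23, adjusted p = 5.4e-05). CCDC26, a long non-coding RNA from the chromosomal region of MYC, had 56.9, 51.9 and 8.51 CPM with vehicle and 0 tags in each OTX015 library, at least 34.9-fold lower. Vehicle library 3 had the lowest CCDC26 level of its group. MXD1 and MXD4, which compete with MYC for its partner MAX, rose by 2.76 and 1.45.

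Several lists of cell growth genes, often counted among MYC targets, held mostly falls. Of 78 ribosome assembly genes 45 fell and 1 rose, with a median log2 of −0.92. NPM1, the nucleolar chaperone mutated in this leukaemia, fell from 1749, 1931 and 2039 to 819, 965 and 351 CPM (log2 −1.42, SE 0.37, adjusted p = 0.00207), and its relative NPM3 by 3.27. Of 35 genes of nucleotide, one-carbon and polyamine synthesis 27 fell, among them RRM1, a subunit of ribonucleotide reductase (−2.91), PAICS, of purine synthesis (−2.57), and SHMT2, the mitochondrial serine enzyme (−2.44). The tRNA synthetases fell in 15 of 22 cases with no rise. Among 27 subunits and factors of RNA polymerases I and III 5 fell and 1 rose, below the 26.1% and 28.8% of all genes, and with library size alone 2 fell and 5 rose. Cytosolic ribosomal protein genes fell in 59 of 86 cases with no rise, and in 37 with library size alone. RPL21 fell by 2.13, and processed copies of such genes make single values uncertain. The translation initiation factor EIF5A fell by 2.24 and EIF3I by 1.59, within a list where 21 of 43 fell.

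Nuclear genes for mitochondria fell broadly. Of 79 genes of the respiratory chain and ATP synthase 68 fell and none rose, against 26.1% and 28.8% of all genes. The median log2 of this list was −1.18. ATP5MC1, a subunit of the ATP synthase ring, went from 147, 160.1 and 128 to 29.5, 21.9 and 10.8 CPM (log2 −2.71). NDUFS8 of complex I, SDHB of complex II and UQCRFS1 of complex III fell by 1.91, 1.59 and 1.84. The mitochondrial ribosome fell in 67 of 77 genes with 1 rise (median −1.30). MRPL11, a protein of its large subunit, went from 111, 107 and 116 to 10.9, 9.86 and 2.15 CPM (log2 −3.68, SE 0.35, adjusted p = 8.79e-09). Protein import into mitochondria fell in 27 of 35, with a log2 of −2.61 for TIMM21. The tricarboxylic acid cycle fell in 11 of 18, and IDH2, which is mutated in other leukaemias, had a log2 of −1.57. With library size alone the falls numbered 56, 51, 18 and 4 for these 4 lists.

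Glycolysis fell in 15 of 21 genes (median −1.62), against 26.1% of all genes. LDHA, which makes lactate, went from 820.3, 823 and 789.9 to 193, 217 and 200.3 CPM, PGAM1 fell by 3.43 and GPI by 2.23. The 2 that rose were PFKFB3, which sets the level of the allosteric activator of the pathway (2.05), and SLC2A3, the glucose transporter GLUT3 (1.35). Cholesterol synthesis and uptake fell in 17 of 23 genes. FDPS, which makes farnesyl diphosphate, fell by 3.32, CYP51A1 by 2.75 and INSIG1, which restrains the pathway, by 2.37. Fatty acid synthesis fell in 9 of 15. SCD, the stearoyl-CoA desaturase, went from 341, 327 and 157 to 18.6, 25.2 and 6.46 CPM (log2 −3.92). Its groups did not overlap, as for 62.1% of all tested genes.

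The proteasome fell in 34 of 44 genes (median −1.19). The catalytic subunits PSMB8 and PSMB10 of the immunoproteasome fell by 2.01 and 2.16. Chaperones fell in 27 of 36 genes, among them HSPD1, the mitochondrial HSP60 (−2.02), and FKBP4, a partner of HSP90 (−1.94). The 3 chaperone genes that rose were the stress-inducible HSPA1B (3.21), its near-identical copy HSPA1A (2.60) and their partner BAG3 (1.61), and tags of the first 2 can be split between copies. In the integrated stress response 4 of 20 genes rose and 7 fell, against 28.8% and 26.1% of all genes, and with library size alone 6 rose and 4 fell. PPP1R15A, which encodes the phosphatase subunit GADD34, went from 12.3, 8.65 and 9.93 to 130.0, 149 and 213 CPM (log2 3.92), and ATF5 rose by 2.24 while CEBPG fell by 1.48. Splicing factors fell in 37 of 64 genes and rose in 7. SNRPF, a core snRNP protein, fell by 2.68 and SRSF11 rose by 1.53.

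Genes of cell division fell in most cases. Of 51 kinetochore and spindle genes 50 fell and none rose, against 26.1% and 28.8% of all genes. The median log2 of this list was −1.87, and 41 of its genes fell with library size alone. CCNA2, cyclin A2, went from 71.5, 77.0 and 87.9 to 4.37, 8.76 and 8.61 CPM (log2 −3.45, SE 0.33, adjusted p = 1.11e-08). UBE2C, which serves the anaphase-promoting complex, fell by 3.22 and BIRC5, survivin, by 2.44. Genes that license and unwind origins fell in 19 of 26 cases. MCM5, a subunit of the replicative helicase, went from 123.1, 96.0 and 155 to 13.1, 12 and 12.9 CPM (log2 −3.27), and MCM2 and CDC45 fell by 3.01 and 3.07. Replication polymerases and their clamp fell in 24 of 30, with a log2 of −3.14 for FEN1, the flap nuclease. DNA repair fell in 20 of 25, with −3.06 for BRCA1. Cohesin and condensin fell in 10 of 16.

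Replication-dependent histone genes fell in 53 of 60 cases with no rise (median −1.84). HIST1H2BE went from 76.2, 70.1 and 271 to 10.9, 15.3 and 8.61 CPM (log2 −3.46). Its groups did not overlap, as for 62.1% of all tested genes. H1F0, a linker histone of resting cells, rose by 1.83, whereas the variant H2AFZ fell by 1.65. Histone copies share sequence, and single values are uncertain. Of 22 cyclins, kinases and inhibitors of G1 5 rose and 8 fell, against 28.8% and 26.1% of all genes. By library size alone 7 rose and 5 fell. CDK4 fell by 2.14 and CDK6, the related kinase, rose from 34.6, 32.0 and 58.1 to 92.8, 84.3 and 286 CPM (log2 1.87, adjusted p = 0.00125).

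**Figure D3:**
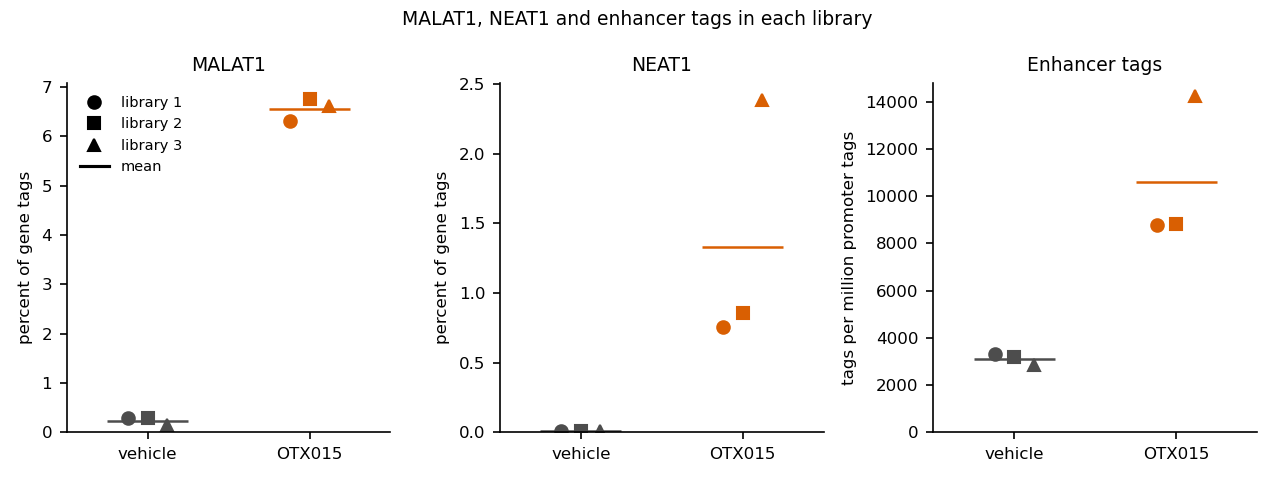
MALAT1 and NEAT1 as percent of gene tags, and enhancer tags per 1000000 promoter tags, in the 3 vehicle libraries (grey) and 3 OTX015 libraries (orange); the shape gives the library number and the line the group mean. Every OTX015 library lies above every vehicle library in each panel, and OTX015 library 3 is the highest for NEAT1 and for enhancer tags.

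Long RNAs that stay in the nucleus took a larger share of the OTX015 libraries. MALAT1, which locates to nuclear speckles (GRCh38 chromosome 11, 65497688 to 65506516), made up 0.283%, 0.291% and 0.148% of gene tags with vehicle and 6.32%, 6.75% and 6.61% with OTX015. The means were 0.241% ± 0.0804 and 6.56% ± 0.219 (SD, n = 3), and the exact two-sided permutation p was 0.1, the smallest that 3 against 3 libraries can give. In the gene test the log2 change was 4.28 (SE 0.52, adjusted p = 3.38e-07). NEAT1, the RNA that builds paraspeckles, took 0.0111%, 0.0128% and 0.00779% with vehicle and 0.755%, 0.855% and 2.39% with OTX015 (log2 6.38, adjusted p = 3.06e-08). The OTX015 libraries were also the shallower ones, and the part of depth or of RNA composition in these shares was not tested.

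Non-coding genes rose more often than coding ones. Of 330 tested long non-coding genes 189 (57.27%) rose and 22 (6.67%) fell, against 26.98% and 27.11% of 9289 protein-coding genes. Without the libraries numbered 3, 56.33% of 316 long non-coding genes rose. Of 116 antisense RNAs 59 rose and 5 fell, with a median log2 of 1.04. INTS6-AS1 went from 2.35, 1.73 and 0 to 25.1, 28.5 and 47.4 CPM (log2 4.16), and RFX3-AS1 rose by 3.66. CAGE promoters carry a strand in their names, but whether the gene counts used it is not given in the sources used here. Of 58 LINC and microRNA host RNAs 35 rose, with MIR22HG higher by 4.38 and LINC02202 by 3.99. Among 22 host genes of small nucleolar RNAs 6 rose and 3 fell, so that their share of rises was no larger than that of all genes. SNHG12 rose by 2.88, SNHG19 by 1.56 and SNHG1 by 1.35, while SNHG16 fell by 1.71.

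**Figure D4:**
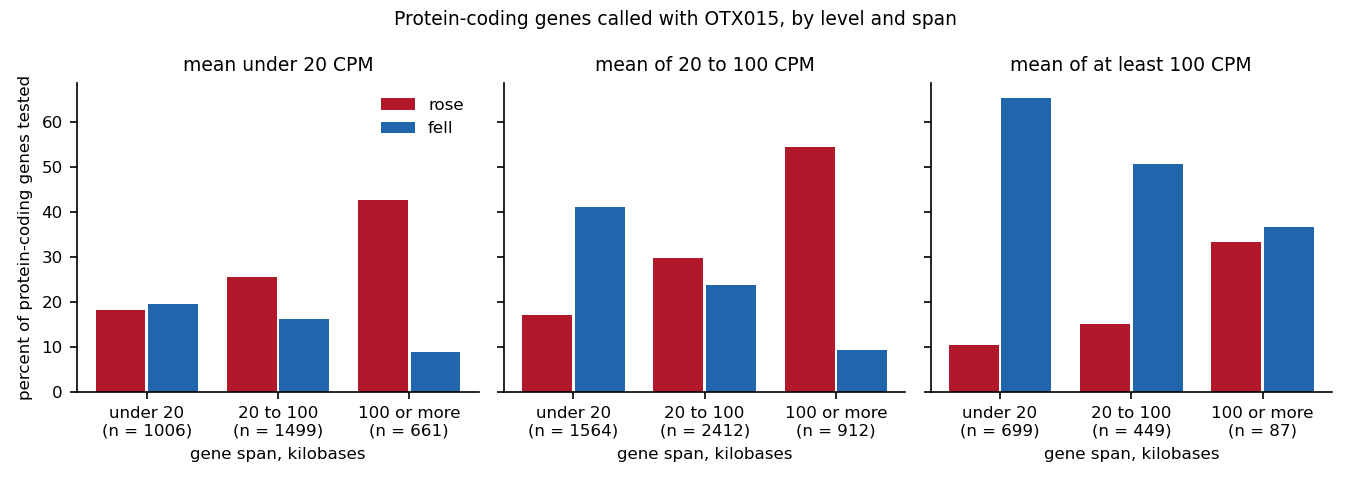
Percent of protein-coding genes that rose (red bars) and fell (blue bars) with OTX015, by genomic span in kilobases within 3 classes of mean CPM over the 6 libraries, with the number of genes under each pair. The share that fell is lower for longer genes in each class of level, and it is highest, 65.52%, for genes under 20 kb at 100 CPM or more.

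The direction of change went with the length of the gene. Of 759 protein-coding genes that span under 5 kb, 14.36% rose and 47.43% fell, and of 1660 that span 100 kb or more, 48.8% rose and 10.6% fell. The classes between them were ordered the same way, with rises of 16.57%, 23.53% and 32.04% at 5 to 20, 20 to 50 and 50 to 100 kb. CAGE counts 5′ ends, but the count of a gene can sum several promoters. Whether longer genes hold more of them was not tested. The share that fell was also larger in each higher class of level, from 13.45% of 342 genes under 5 CPM to 56.67% of 1304 genes at 100 CPM or more. The share that rose was not ordered by level, with 12.87% in the lowest class, 33.05% at 20 to 50 CPM and 15.03% in the highest. Within genes of 20 to 100 CPM, 17.2% rose under 20 kb and 54.61% rose at 100 kb or more, and the falls were 41.24% and 9.32%. Below 20 CPM the corresponding rises were 18.19% and 42.81%. Without the libraries numbered 3 the shares that rose were 15.27% under 5 kb and 46.4% at 100 kb or more. These are shares of genes within the same 6 libraries, and no test across genes was made.

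Promoter counts and gene counts are largely the same tags, so the promoter split is no separate measurement. By exact sums 81.6% of promoter tags were joined to a gene. Of 12867 tested 3648 (28.4%) rose and 3322 (25.8%) fell, 6970 (54.2%) in all. A promoter of SGK1, at chr6:134495992-134496010 on the minus strand (hg19, the build in its name), had 0 vehicle tags and 59.1, 53.8 and 158 CPM in the OTX015 libraries. The promoter at chr14:25045446-25045464 (hg19, minus strand) went from 2613, 2775 and 4232 to 22.3, 17.9 and 4.44 CPM, a log2 of −7.62. Its tags in the 6 libraries are the same counts as those of the gene CTSG, so the promoter repeats the gene's value.

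**Figure D5:**
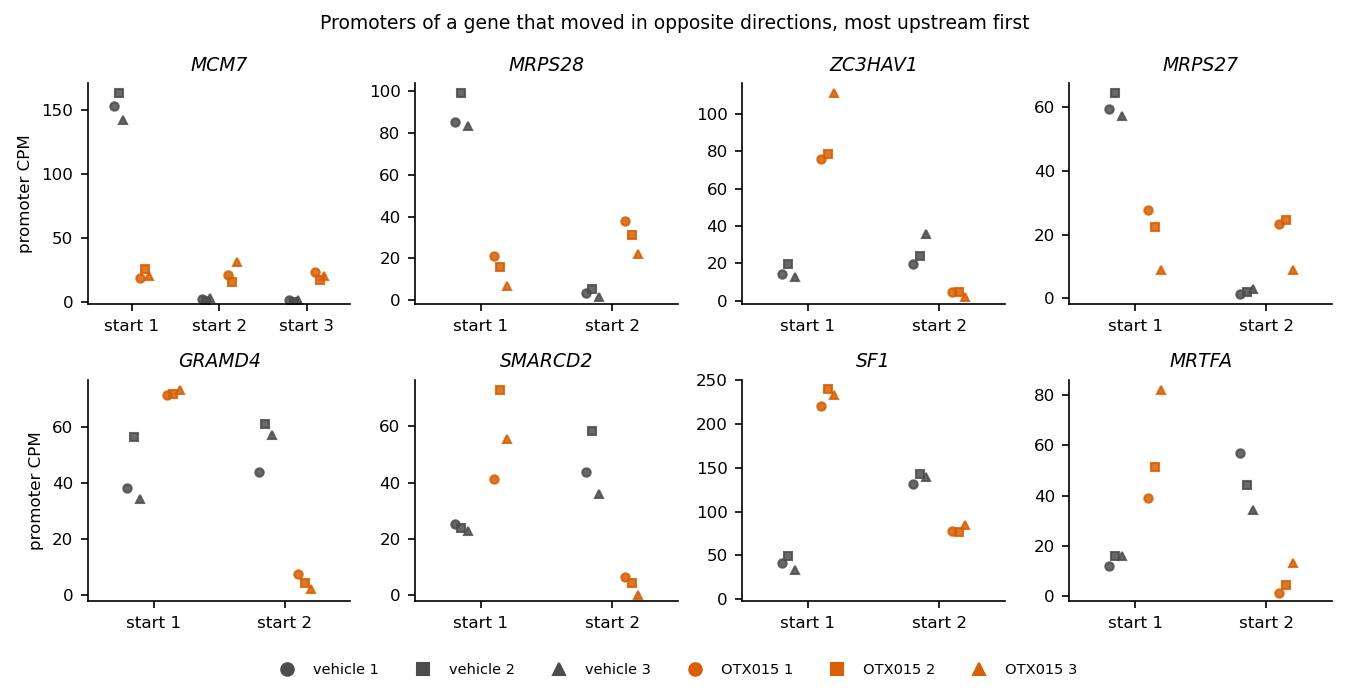
CPM of the promoters (starts, most upstream first) of 8 genes that held promoters called in opposite directions, in the 3 vehicle libraries (grey) and 3 OTX015 libraries (orange), each panel on its own linear axis. In MCM7, MRPS28 and MRPS27 the upstream start fell, and in the other 5 genes the upstream start rose.

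Within genes, some promoters moved against the rest. The use of a promoter relative to the others of its gene was tested for 4399 promoters of 1925 genes, and 244 (5.55%) rose and 238 (5.41%) fell in relative use, in 369 genes (19.2%). When only promoters at least 500 bases from every other tested promoter of their gene were kept, a choice made after seeing the data, 80 promoters of 62 genes were called. The 482 calls became 302 without vehicle library 1. In 39 of the 1925 genes (2.026%) 1 promoter rose and another fell in absolute level too. The pairs lay 12 to 173253 bases apart with a median of 260, and 27 were under 500 bases apart. The rising promoter was the weaker one with vehicle in 37 of the 39 genes, and it lay downstream in 14 and upstream in 25. The count of 37 follows in part from the choice of pairs. A fall can be called only where vehicle tags are present, whereas a rise can start from few tags.

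In MCM7, a helicase subunit on the minus strand of chromosome 7, the strongest promoter at chr7:99698956-99699038 (hg19) fell from 152, 163 and 142 to 18.9, 25.8 and 20 CPM (log2 −2.80). A downstream promoter at chr7:99698338-99698385 rose from 2.40, 0.884 and 2.86 to 21.2, 15.7 and 31.1 CPM (log2 3.35). A further one at chr7:99698137-99698170 rose from 1.80, 0 and 1.43 to 23.4, 16.8 and 20 CPM (log2 3.99). With OTX015 the 3 promoters were of similar level, whereas with vehicle the first held nearly all tags. The 5′ ends of the second and the third lie 653 and 868 bases downstream of the first, and RefSeq lists MCM7 starts 643 and 868 bases downstream of its first.

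SF1, the splicing factor that reads the branch point, had a pair closer together on the minus strand of chromosome 11. The promoter at chr11:64546232-64546255 (hg19) rose from 41.4, 49.5 and 32.9 to 221, 240.0 and 233 CPM and the one at chr11:64545975-64546034 fell from 131, 143 and 139 to 78.0, 76.3 and 84.4 CPM. The stronger promoter of SF1 thus differed between the groups, in all 3 libraries of each. MRTFA, a coactivator of serum response factor, had the widest pair, 173253 bases. Its upstream promoter at chr22:41032668-41032730 went from 12, 15.9 and 15.8 to 39.0, 51.6 and 82.2 CPM and the downstream one at chr22:40859415-40859478 from 57.0, 44.2 and 34.4 to 1.11, 4.49 and 13.3 CPM. In MRPS27, a gene of the mitochondrial ribosome, the promoter at chr5:71616043-71616079 fell from 59.4, 64.5 and 57.3 to 27.9, 22.4 and 8.89 CPM. Another, 11874 bases downstream, rose from 1.2, 1.77 and 2.86 to 23.4, 24.7 and 8.89 CPM. ZC3HAV1, an antiviral zinc finger gene, SMARCD2, of the SWI/SNF remodeller, and GRAMD4 also held such pairs.

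Enhancers give short capped RNAs on both strands where they are active. Their tags numbered 3319, 3181 and 2871 per 1000000 promoter tags with vehicle and 8793, 8811 and 14216 with OTX015. The means were 3123 ± 230 and 10607 ± 3126 (SD, n = 3), with an exact two-sided permutation p of 0.1, the smallest possible. After division by the TMM factors of the promoter table the ratio of means was 2.35 in place of 3.40. Leaving out the 50 largest enhancers gave 3.21.

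Of 849 enhancers tested at the library sizes of the promoter counts, 314 (37%) rose and 41 (4.83%) fell, with a median log2 of 1.26. The falls numbered 21 without vehicle library 1 and 24 without vehicle library 2. With sizes and factors of the enhancer counts themselves, which remove a change common to all enhancers, 98 rose and 88 fell. DESeq2, whose size factors also came from the enhancer counts, called 45 and 67. The direction of single enhancers is therefore relative to the scale. Distances to genes were taken for the 673 tested enhancers read as hg38, not for the 176 named in hg19. Of these 673, enhancers farther than 1000 bases from a transcript start rose in 177 of 494 cases and fell in 25. The nearer ones rose in 77 of 179 and fell in 7.

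The enhancer at chr11:33892999-33893225 (hg38), 823 bases from a start of LMO2, a factor of blood stem cells, went from 4.80, 4.42 and 1.43 to 128, 132 and 80.0 CPM (log2 4.83, SE 0.50, adjusted p = 2.35e-19). LMO2 itself rose by 0.92. An enhancer near GTF2A1 at chr14:81219169-81219729 (hg38) went from 3.0, 1.77 and 8.59 to 83.6, 94.2 and 138 CPM. Among the falls, one in RXRA at chr9:134372644-134373270 had 90 vehicle tags and 2 OTX015 tags, 28.8-fold lower (95% counting interval 7.75 to 242). One at chr10:42975710-42975875 had 42 vehicle tags and 0 OTX015 tags, at least 8.97-fold lower. One near KLF16, at chr19:1855248-1855766, fell from 19.8, 27.4 and 17.2 to 4.46, 2.24 and 2.22 CPM, and KLF16 fell as well.

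Among the 673 tested enhancers read as hg38, those that rose within 1000 bases of the start of a tested gene numbered 44. That gene rose in 30 cases and fell in 1. Beside 50 enhancers that passed in neither direction at this distance the gene rose in 14 and fell in 16. At 100000 bases or more from the nearest tested gene 34 enhancers rose, with 7 genes higher and 17 lower, while beside the 46 that passed in neither direction 13 were higher and 13 lower. From 10000 to 100000 bases the gene rose beside 37.25% of 102 rising enhancers and beside 38.57% of 140 that passed in neither direction. Beside falling enhancers the gene fell in 1 of 5 cases within 1000 bases, 5 of 11 up to 10000, 3 of 11 up to 100000 and 4 of 5 beyond, and it rose in 1, 0, 3 and 1. Near starts, tags of a gene's own promoter and of the enhancer can overlap, and their part in these counts was not tested.

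JQ1, given to 3 libraries of AML3, is a compound of the same thienotriazolodiazepine scaffold, with a tert-butyl ester where OTX015 has a hydroxyphenyl amide. Because the doses and times of both are not given, it is unknown whether they were matched. Between OTX015 and JQ1 in AML3 edgeR's quasi-likelihood test called 0 of 10031 genes (0%), DESeq2 called 0, and 253 genes (2.52%) had an unadjusted p under 0.05. The median standard error of a difference was 0.32, and 246 genes had a difference of at least 2-fold in size. The log2 difference, OTX015 minus JQ1, with its 95% interval was 0.16 (−0.38 to 0.70) for MYC, 0.12 (−0.78 to 1.01) for HEXIM1 and 0.50 (−0.41 to 1.41) for BCL2. For MT1F it was −1.51 (−2.94 to −0.08), an interval that excludes 0 before adjustment. Without the libraries numbered 3 edgeR called 1 gene, the dehydrogenase DHRS9, lower with OTX015 by 1.53 on the log2 scale (adjusted p = 0.0206). These intervals leave room for differences in either direction, and the absence of calls does not show that the compounds act alike.

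The same compound was compared with vehicle in the line AML2 (OCI-AML2), also with 3 libraries a group. The effect in AML3 minus that in AML2 was higher for 285 of 10031 genes (2.84%) and lower for 482 (4.81%) in the same edgeR model, 767 (7.65%) in all. A lower value means a deeper fall, or a smaller rise, in AML3. Of the 6 metallothioneins 4 were lower, of 8 S100 proteins 6, of 25 monocyte surface genes 13, of 26 growth factor and cytokine receptors 10, of 51 kinetochore genes 19 and of 60 histone genes 15. None of these lists had a member called higher. CTSG had a difference of −6.71 (SE 0.63, adjusted p = 1.12e-07), going from 3154 to 14.6 CPM in AML3 and from 1419 to 749 CPM in AML2 (group means, n = 3). TYROBP went from 185 to 15.3 CPM in AML3 and from 439 to 622 CPM in AML2, and S100A6, a calcium-binding protein, from 204 to 112 CPM and from 99.5 to 776 CPM.

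MYC went the other way, from 191 to 76.3 CPM in AML3 and from 439 to 50.3 CPM in AML2, a difference of 1.84 (SE 0.34, adjusted p = 0.000737). Of 22 snoRNA host genes 8 were higher in AML3 and none lower, among them SNHG19, which went from 69.4 to 207 CPM in AML3 and from 212 to 112 CPM in AML2. The difference was called for 0 of 79 respiratory chain genes, 0 of 44 proteasome genes, 0 of 36 chaperones and 1 of 77 mitochondrial ribosome genes, and for 2 of 35 genes of mitochondrial import, 2 of 27 autophagy genes and 7 of 50 lysosome genes (1 higher, 6 lower), against 7.65% of all genes. Without the libraries numbered 3 the difference was called for 1410 genes, 492 higher and 918 lower, in place of 767.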

How the data were processed

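The values deposited are counts: CAGE tags in whole numbers for every gene symbol, promoter and enhancer, without normalization. STAR and hg38 are named in the submitters' processing notes, without versions, and the counting tool is not given in the sources used here. Promoter names carry hg19 or hg38 coordinates, and enhancers without a build in the name were read as hg38. Coordinates were never converted.

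The tests were made in R 4.3.3 with edgeR 4.0.16 (quasi-likelihood, TMM, filterByExpr over the 6 groups, 1 mean per group, 18 libraries, 12 residual degrees of freedom, two-sided). The filter kept 10031 genes and 12867 promoters. For enhancers the filter was 3 tags or more in 3 libraries or more, and sizes and factors came from the promoter counts. Promoters were joined to genes whose counts equal their sum in every library, which covered 10395 genes and 28087 promoters, and relative use was tested with diffSpliceDGE. DESeq2 1.42.0, library size alone, no filter, a replicate block, fits to fewer libraries and leaving out each library were alternatives. The fits were tested on simulated counts.

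Members and lists were chosen with earlier results of these data known. The genes named are the 12 largest rises and the 12 largest falls among calls with at least 10 CPM in the higher group and no overlap between the groups. Further named are up to 4 called members per list with the smallest adjusted p (overlap not considered), the 5 largest differences each way between the lines, chosen as the largest changes were, and MYC, HEXIM1, SERPINI1, CDKN1A, BCL2, MCL1, NPM1, CDK6, HOXA9, MEIS1, MALAT1, NEAT1, BRD2, BRD3 and some lineage genes. A few genes and a list that the rule names are not reported here. Members that moved against their list, and BBC3, BAX, BAK1, RUNX1, MYB and LMO2, were chosen after their values were seen. For promoters the rule took 6 each way, for enhancers 6 each way by adjusted p, and for promoter use 8 genes with opposite pairs. GENCODE release 29 gave positions and gene types, and RefSeq (GRCh38.p14) gave the sequences, from which bases in annotated UTRs were left out.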

Additional observations from a re-analysis of the deposited data

Results flagged for a closer look

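The effect of OTX015 in AML3 differed from its effect in AML2 for 72 of the 258 tested genes chosen for naming, 15 higher and 57 lower in AML3, by edgeR's test of the difference with Benjamini-Hochberg adjustment over all genes. The share of all tested genes was 7.65%, but it is no fair measure for the named genes. Most of them were chosen for a strong change with OTX015 in AML3, which is part of the difference tested. ZFPM2-AS1, FSCN1, ZC3H12C, LOC105274304, LOC100130872, ITGAX, GPR84, HVCN1, CYTIP and CTSG were chosen for the largest such differences, so their calls are given by that choice. Values are log2 effect in AML3 minus log2 effect in AML2.

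Among granule and monocyte genes the difference was −6.71 for CTSG, −6.22 for LY86, −4.08 for FCGR2A, −4.03 for TYROBP, −2.94 for MNDA, −1.55 for AIF1, −8.77 for ITGAX, −1.91 for CD74, −7.32 for HVCN1 and −7.24 for CYTIP. Receptors and chemokines gave −8.67 for GPR84, −2.77 for CCR1, −2.48 for CCL5, −2.38 for FLT3 and −1.82 for CXCR4. GPR84 went from 29.2 to 0.364 CPM in AML3 and from 25.8 to 186 CPM in AML2, and FLT3 from 41.4 to 25 CPM and from 94.5 to 299 CPM. The S100 proteins gave −3.82 for S100A6, −3.48 for S100A4, −1.91 for S100A10 and −1.79 for S100A11. For metallothioneins it was −5.01 for MT1F, −3.37 for MT1E and −2.37 for MT1X.

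Transcription and chromatin regulators gave −3.95 for KLF2, −2.53 for IKZF1, −1.79 for SPI1, −1.69 for IRF8, −1.43 for CEBPA, −2.69 for NFKBIE, −1.0 for BRD3 and −1.19 for H2AFY. CEBPA went from 613 to 332 CPM in AML3 and from 349 to 512 CPM in AML2. Higher in AML3 were MYC (1.84), MLLT3 (3.77), HOXA3 (1.84), ATF5 (1.94), PPP1R15A (1.73), DUSP10 (2.14) and ZNF254 (1.36).

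In replication and repair the values were −2.34 for MCM2, −2.31 for MCM5, −1.90 for MCM6, −2.05 for CDC45, −1.88 for PRIM1, −2.79 for FEN1, −2.18 for CHAF1A, −1.83 for RRM1, −2.87 for BRCA1, −1.92 for EXO1 and −1.41 for UNG. In the cell cycle they were −1.89 for CCNA2, −1.95 for UBE2C, −1.54 for BIRC5, −1.41 for SPC24, −1.52 for NCAPG2 and −2.67 for CDKN2A. Histone genes gave −2.27 for HIST1H2BM, −1.81 for HIST1H2BO and −2.27 for HIST1H4I.

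Metabolic genes gave −2.87 for PGAM1, −1.05 for IDH2, −1.33 for SHMT2, −1.68 for ACAT2 and −1.70 for INSIG1. RAB8B had −2.40 and TNS1, which links integrins to actin, −5.27. Non-coding RNAs gave 2.47 for SNHG19, 1.55 for SNHG1, 2.70 for LINC01481, 6.16 for ZFPM2-AS1, 5.46 for LOC105274304 and 5.43 for LOC100130872. FSCN1, which bundles actin, had 5.50 and ZC3H12C, of a family of ribonucleases, 5.50. Groups with 0 tags in 1 line, such as AML3 with OTX015 for ITGAX, HVCN1, CYTIP, LY86 and TNS1, make the size of these fitted differences depend on the prior count of the model. The calls for LOC100130872 and LOC105274304 were lost when single libraries were left out.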

How the results depend on the processing

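Over the 14 alternatives run for the gene test no gene called with OTX015 against vehicle was called in the opposite direction. With library size alone 1512 genes and 2064 promoters fell. DESeq2, with size factors from the enhancer counts, called 112 enhancers, 45 higher and 67 lower. In edgeR the enhancers' own library sizes gave 186 calls, 98 higher and 88 lower. Relative promoter use was called for 295 promoters, 131 of them higher, in 234 genes when a mean of 10 tags was required, and for 80 (44 higher, 36 lower) in 62 genes among promoters at least 500 bases apart, where fewer promoters were tested. The MALAT1 share differed by 4.88 percentage points after scaling by TMM in place of 6.32. Without the libraries numbered 3, OTX015 against JQ1 gave 1 call (1 lower), and the difference between lines was called for 1410 genes, 492 higher and 918 lower.

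With the replicate block the difference between lines was higher for 450 genes, and OTX015 against vehicle was called for 5853 genes in place of 5505. The labels do not say whether the replicate numbers pair the libraries. The correlations of same-numbered deviations were 0.0508, 0.0716 and 0.0965, all under 0.1, although every library correlated best with its own number. Such weak correlations cannot decide whether the libraries are paired, and the main fit treated them as unpaired. CDKN1A and MCL1 passed the test with the block. Among all other counts of calls it moved 1 by over 1.5 times, the rises among RNAs near MYC (from 0 to 1).

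Leaving out 1 library at a time, genes called ranged from 4798 to 5293, promoters from 6278 to 6914 and enhancers from 252 to 309 (falls 21 to 40). Promoter use ranged from 302 to 453 (rises 143 to 224, falls 152 to 229) in 252 to 357 genes, and the difference between lines from 552 to 820 (higher 180 to 324, lower 367 to 496). Over all pairs of a named gene and an alternative, 4197 kept direction and side of the threshold, 53 lost the call and 11 gained one, and CDKN1A, MCL1, FLT3, S100A6 and CEBPA were among those that changed side. Depth limited genes of few tags, such as POLR3G, with 25 vehicle tags and 3 OTX015 tags.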

Other observations

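Zinc finger ZNF genes, mostly transcriptional repressors, rose in 111 of 257 cases and fell in 12, with a median log2 of 0.67. ZNF703 rose by 3.33 and ZNF580 by 3.32. Of 27 Polycomb genes 9 rose and 3 fell, with CBX7 higher by 1.85 and EZH1 by 1.61. Among 18 genes of menin, the MLL complexes and DOT1L 5 rose and 2 fell, with KMT2C higher by 2.02 and KDM6A by 1.79. Solute carriers moved both ways, 46 of 155 higher and 26 lower. SLC2A5, the fructose carrier, fell by 3.92 and SLC19A1, which imports folate, by 3.12.

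Among 28 NF-kB subunits, inhibitors and targets 11 rose and 7 fell. PTGS2, the inducible cyclooxygenase, rose by 5.24 and the chemokine CCL5 fell by 2.95. Of 18 interferon response genes 6 rose and 3 fell, with IRF7 higher by 3.19, IRF1 by 1.70, and IRF8, a factor of monocyte and dendritic cells, at −2.16. Changes in all lists of this section are against 28.8% of all genes that rose and 26.1% that fell.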
